A study of Mus musculus with 2 samples.

Results

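The 29 genes described here encode enzymes, regulators and a carrier of cholesterol and fatty acid synthesis. They were chosen by symbol among the 32285 genes of the deposited count tables, and all 29 were found. They comprise 18 enzymes of the sterol pathway (7 of its mevalonate branch, 3 from squalene to lanosterol and 8 from lanosterol to cholesterol), 5 regulators, 1 sterol carrier and 5 enzymes of fatty acid synthesis.

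Cholesterol is built from acetyl-CoA through mevalonate, isoprenoid units, squalene and lanosterol, and the brain makes nearly all of its own because plasma lipoproteins do not cross the blood-brain barrier. Oligodendrocytes need it in large amounts for myelin, and astrocytes make and export it. The transcription factors SREBP1 and SREBP2, encoded by Srebf1 and Srebf2, are held in the endoplasmic reticulum by SCAP and the INSIG proteins while sterols are plentiful, and switch on the synthesis genes when sterols run low.

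Nuclei of the ventral tegmental area (VTA), the midbrain region that holds many dopaminergic neurons, were profiled by droplet sequencing in adult mice. The CCI library came from mice with chronic neuropathic pain after chronic constriction injury of the left sciatic nerve, with the right nerve exposed and not ligated, and the WT library came from wild type mice. Each group was 1 library, so no difference between CCI and WT has a replicate check, and none was tested. The strain, sex, side of the VTA, time after injury, number of pooled mice and any surgery in WT mice are not given in the labels, and both libraries were made with 10x 3' v2 chemistry after enzymatic tissue dissociation, although the study describes single nuclei.

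The CCI library was deeper, with 13736 barcodes and a median of 3652 UMIs (unique molecular identifiers, each a counted molecule), against 14114 barcodes and a median of 975 UMIs in WT. The files shared 54 barcodes. After filtering and doublet removal 12825 CCI and 12189 WT nuclei remained, and clusters were named from marker genes. The classes were oligodendrocyte-like (3698 CCI and 3842 WT), precursor-like (387 CCI and 547 WT), astrocyte-like (1488 CCI and 1272 WT) and neuron-like nuclei (6638 CCI and 5952 WT), named below without the suffix. UMIs were summed per library and class and are given as CPM, the UMIs of a gene per 1000000 UMIs of that class and library, so a level is a share of the class's RNA. Intervals are 95% and cover counting error only. Between libraries a gene with at least 20 UMIs in the class is called where its CPM differs by over 1.5-fold with an interval of the log2 ratio clear of 0, and between classes where it differs by over 2-fold, clear of 0, in both libraries.

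In CCI oligodendrocytes, 9 of the 18 sterol enzymes were lower than in WT oligodendrocytes and none was higher. Summed over the 18 enzymes, the level was 535 CPM (interval 519 to 552) in CCI oligodendrocytes, against 900 CPM (867 to 935) in WT oligodendrocytes, a log2 ratio of -0.75 (-0.82 to -0.68). The same sum was 396 CPM in CCI and 491 CPM in WT precursors (-0.31, -0.54 to -0.08), 743 CPM in CCI and 883 CPM in WT astrocytes (-0.25, -0.36 to -0.14), and 433 CPM in CCI and 470 CPM in WT neurons (-0.12, -0.16 to -0.07). The oligodendrocyte interval did not overlap those of precursors, astrocytes and neurons. It did overlap those of 2 smaller classes, committed precursors, with 768 CPM in CCI and 1154 CPM in WT (-0.59, -0.95 to -0.24), and microglia-like nuclei, with 343 CPM in CCI and 472 CPM in WT (-0.46, -0.79 to -0.13). Srebf1 was higher, at 41.6 CPM in CCI and 21.3 CPM in WT oligodendrocytes.

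Of the 29 genes, all of which had enough UMIs in oligodendrocytes, 9 were called lower and 1 higher in CCI, where 9.87% of 13705 genes were called, 3.9% lower and 5.98% higher. The median log2 ratio of the 29 genes was -0.37 and that of all genes 0.06. In precursors, 21 of the 29 genes had enough UMIs, and 3 were called lower (Hmgcs1, Idi1 and Insig1) and 1 higher (Srebf1), where 6.68% of 8928 genes were called, 3.38% lower and 3.29% higher. At equal depth 8 of the 29 genes had enough UMIs in precursors and only Hmgcs1 was called, where 6.06% of all genes were called. The median of the 21 genes was -0.18, beside 0.03 over all genes, and it was 0.03 over the 8 genes measured at equal depth. In astrocytes, 2 of 29 were called, Hmgcs1 and Idi1, both lower, where 9.69% of 12214 genes were called, 4.34% lower and 5.35% higher, and that count was 0 under stricter filtering and under another scaling. In neurons, 4 of 29 were called, all lower (Idi1, Insig1, Scd1 and Scd2), where 11.9% of 18926 genes were called, 5.85% lower and 6.02% higher, and none of those 4 was called after nuclei were thinned to equal depth. Thinning gave 3 other calls in neurons, Acat2 and Mvk higher and Hsd17b7 lower, and in astrocytes 1, Scd1 higher, in place of both main calls. Of all genes, 10.8% in neurons and 6.51% in astrocytes were called after thinning. The medians of the 29 genes in astrocytes and neurons were 0.11 and 0.01, beside 0.04 over all genes in both.

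**Figure D1:**
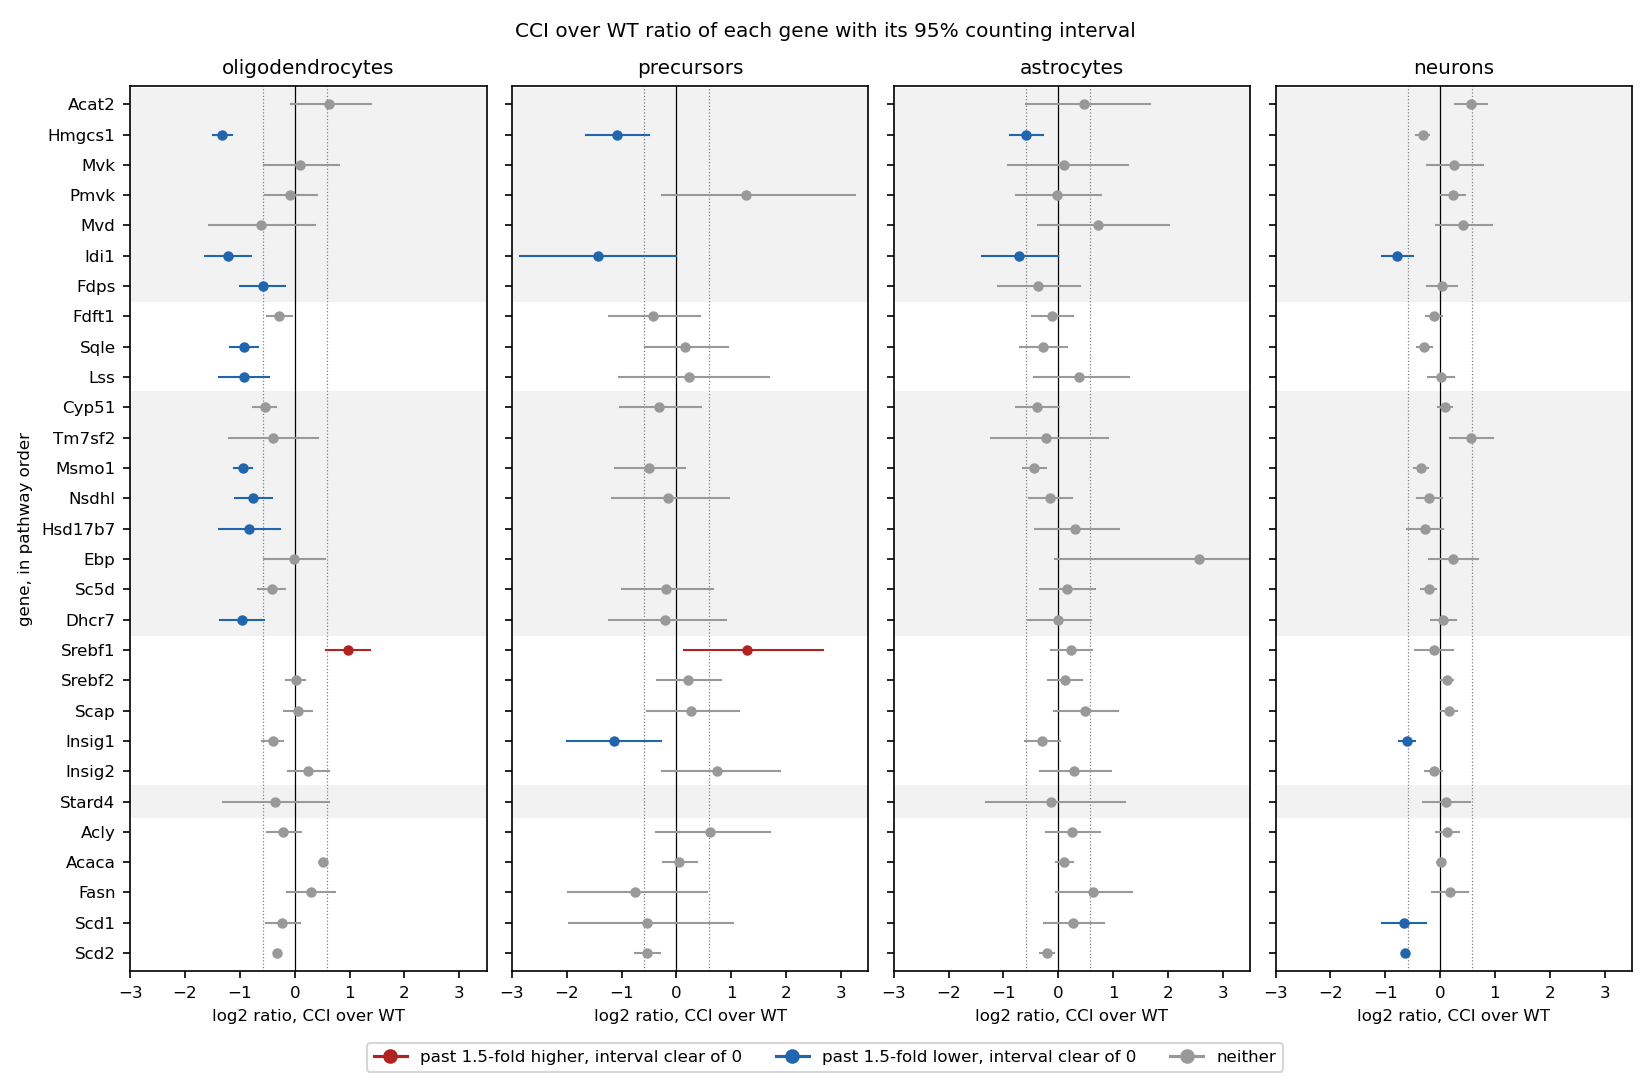
Log2 ratio of CPM, CCI over WT, for each gene in 4 classes; points are ratios, bars are 95% counting intervals (cut at the panel edge for Ebp in astrocytes), dotted lines mark 1.5-fold, and genes under 20 UMIs in a class are not drawn. In oligodendrocytes 10 points lie past 1.5-fold on the lower side and 2 on the higher side, and the intervals of Mvd (lower side) and Acat2 (higher side) include 0.

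Other transcripts also differed between the libraries. The summed level of 9 oligodendrocyte markers was 14032 CPM in CCI and 20723 CPM in WT oligodendrocytes, and the same 9 markers, none at 0, summed to 781 CPM in CCI and 2508 CPM in WT precursors, 825 CPM in CCI and 2772 CPM in WT astrocytes, and 306 CPM in CCI and 1110 CPM in WT neurons. Transcripts of the 13 mitochondrially encoded genes were 3276 CPM in CCI and 4947 CPM in WT oligodendrocytes, and 2200 CPM in CCI and 5263 CPM in WT neurons. The part of these transcripts, and of the difference in depth, in the ratios below was not tested.

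Promoter sequence is shown for 1 called gene of each section of the sterol pathway and for Srebf1, the gene called in the opposite direction. Each line holds the 250 bases before the start that RefSeq gives on mouse build GRCm38.p6, read 5′ to 3′ on the gene's strand, and for Srebf1 it is the first of several listed starts. Capitals mark CCAAT on either strand (ATTGG on the other), the box bound by NF-Y, and a match on either strand to TCANNCCAC, the core of the sterol regulatory element bound by SREBPs.
Hmgcs1 promoter (chr13:119690101-119690350, + strand): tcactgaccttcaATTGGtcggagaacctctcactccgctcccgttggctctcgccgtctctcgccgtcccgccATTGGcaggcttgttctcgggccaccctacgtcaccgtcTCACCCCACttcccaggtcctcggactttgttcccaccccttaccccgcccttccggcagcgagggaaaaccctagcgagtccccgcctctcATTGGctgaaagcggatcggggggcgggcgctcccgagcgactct
Lss promoter (chr10:76531355-76531604, + strand): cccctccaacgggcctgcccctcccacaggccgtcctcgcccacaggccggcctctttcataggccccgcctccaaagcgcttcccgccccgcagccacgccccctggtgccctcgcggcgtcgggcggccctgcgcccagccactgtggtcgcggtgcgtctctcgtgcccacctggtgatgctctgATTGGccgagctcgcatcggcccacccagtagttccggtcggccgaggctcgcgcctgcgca
Nsdhl promoter (chrX:72918271-72918520, + strand): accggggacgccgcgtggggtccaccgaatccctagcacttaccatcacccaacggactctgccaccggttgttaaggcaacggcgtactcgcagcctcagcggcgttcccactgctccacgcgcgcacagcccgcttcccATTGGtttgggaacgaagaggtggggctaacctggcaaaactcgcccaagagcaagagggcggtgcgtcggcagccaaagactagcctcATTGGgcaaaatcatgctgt
Srebf1 promoter (chr11:60222582-60222831, - strand): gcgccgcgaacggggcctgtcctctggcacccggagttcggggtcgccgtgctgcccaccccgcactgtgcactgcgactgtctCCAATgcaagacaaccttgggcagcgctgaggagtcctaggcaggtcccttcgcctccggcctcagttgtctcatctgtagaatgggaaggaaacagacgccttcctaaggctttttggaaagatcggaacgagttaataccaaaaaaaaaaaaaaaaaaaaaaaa
The Hmgcs1 window held 3 CCAAT boxes and, 137 bases before the start, 1 match to TCANNCCAC. The windows of the other listed Srebf1 starts differed from the one shown. In 1 there was no CCAAT box, and another held 1 at 30 bases before its start. Which start the counted transcripts used was not measured. Windows were found for 23 of the 29 genes, and Fdps, Fdft1, Sqle, Stard4, Scd1 and Scd2 had none. A CCAAT box stood in 20 of the 31 windows of these genes (64.5%) and in 33.8% of 32851 RefSeq windows of the same length. TCANNCCAC stood in 2 of 31 (6.45%, Hmgcs1 and Acly) and in 3.52% of all windows. GGGCGG, the GC box, was in 74.2% of the 31 windows and 32.7% of all, and CANNTG, the E-box, in 71.0% and 66.2%. These matches are letters in a window and were not measured as bound sites.

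By class, every one of the 29 genes had UMIs in all 4 classes of both libraries. Of the 29 genes, 18 had their highest CPM in astrocytes in CCI and 10 in WT, while 8 had it in oligodendrocytes in CCI and 16 in WT. The highest class was clear of the next by its interval for 12 genes in CCI and 11 in WT, and for Scap, Acaca and Scd2 that class was oligodendrocytes in both libraries, and for Msmo1, Nsdhl and Srebf1 astrocytes. Counts of the highest class were not made over all genes, so they describe the 29 genes without a background share. Against neurons, 9 genes were called higher in oligodendrocytes, where 34.6% of 15390 genes were called, 10.2% higher and 24.4% lower. In astrocytes 9 were called higher, where 25% of 15117 genes were called, 9.6% higher and 15.4% lower. No gene of the 29 was called lower in either. At equal depth 5 were called in each, where 27.1% of all genes were called in oligodendrocytes and 17.4% in astrocytes. The median log2 ratio of oligodendrocytes over neurons was 0.45 in CCI and 0.85 in WT, beside -0.26 and -0.27 over all genes. For astrocytes over neurons it was 0.72 in CCI and 0.80 in WT, beside -0.21 and -0.23. Scaling by TMM would shift the oligodendrocyte ratios by 0.18 in CCI and 0.16 in WT and left their count at 9. In precursors only Scd2 was called against neurons, where 12.4% of 14921 genes were called, 5.48% higher and 6.94% lower. Between astrocytes and oligodendrocytes, Srebf1 was called higher and Ebp and Scd2 lower in astrocytes, where 22.2% of 11374 genes were called, 12.1% higher and 10.1% lower.

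**Figure D2:**
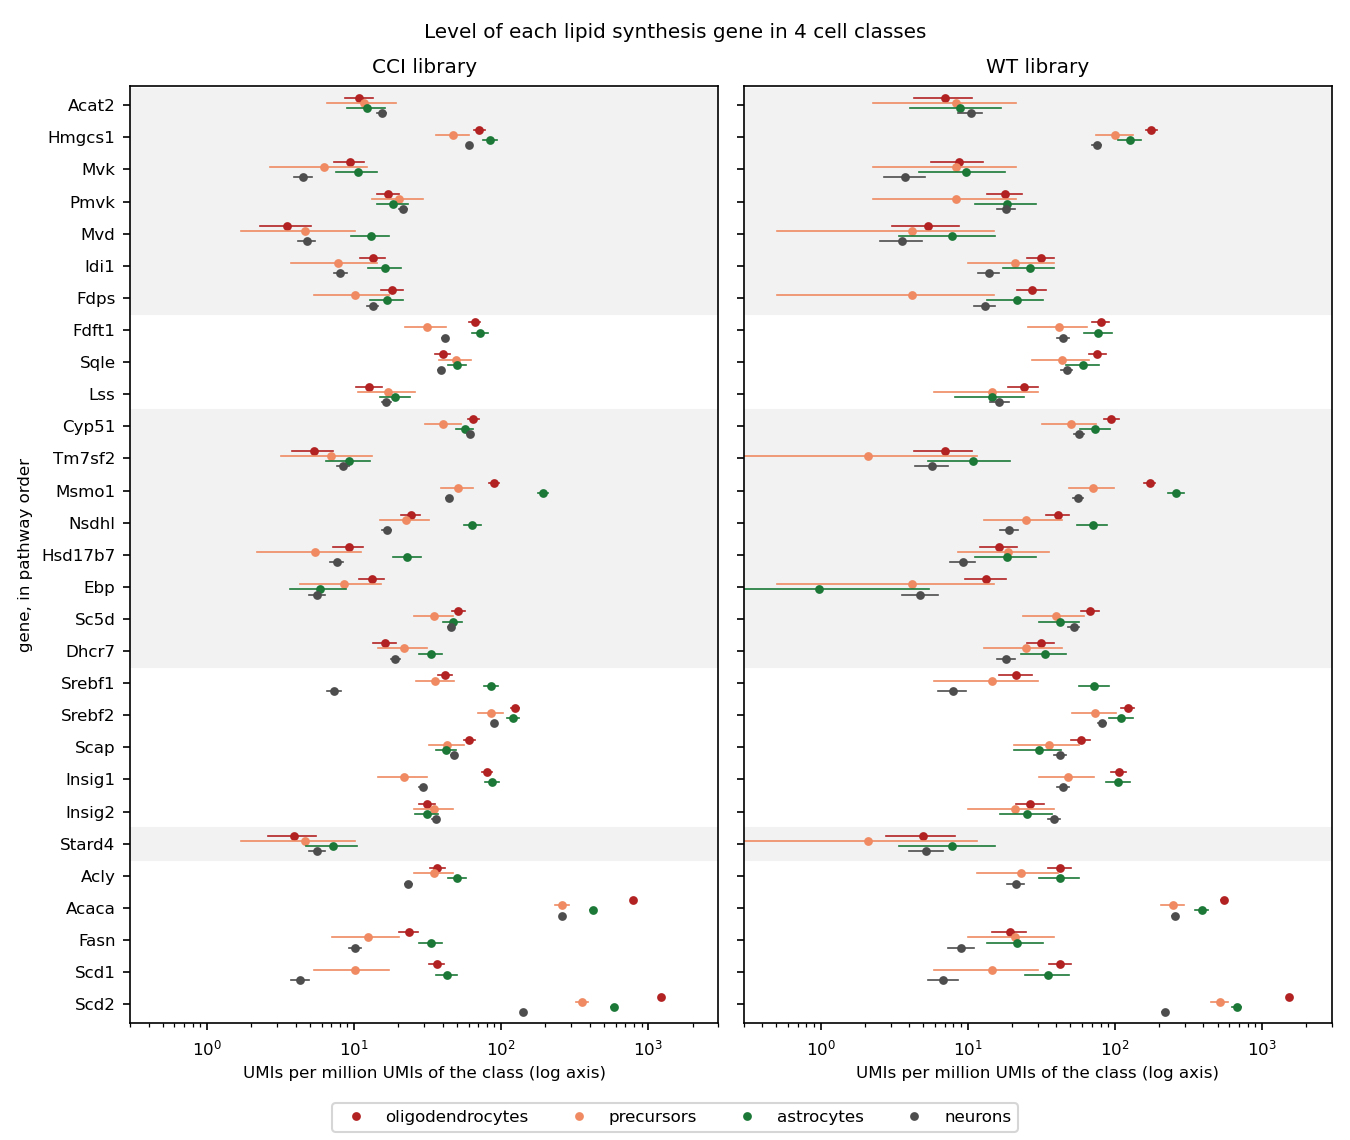
CPM of each gene (log axis) in the CCI library (left) and the WT library (right), with 95% Poisson intervals, cut at the left edge where they run off it; colours are the 4 classes and shading separates the pathway sections. Scd2 stands highest in oligodendrocytes in both libraries, at 1223 CPM in CCI and 1527 CPM in WT.

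The mevalonate branch turns acetyl-CoA into farnesyl diphosphate. Its first genes were Acat2, encoding the cytosolic thiolase, and Hmgcs1, encoding HMG-CoA synthase (ENSMUSG00000093930, chr13:119690379-119708260 on the + strand of mm10). In CCI, Hmgcs1 had 71.2 CPM in oligodendrocytes, 47.4 in precursors, 84.2 in astrocytes and 60.5 in neurons, against 178, 100, 126 and 75.5 CPM in the same classes of WT. The log2 ratio was -1.32 (-1.49 to -1.15) in oligodendrocytes, -1.08 (-1.65 to -0.51) in precursors, -0.59 (-0.89 to -0.28) in astrocytes and -0.32 (-0.43 to -0.21) in neurons, so that all 4 were negative and the neuronal one did not reach 1.5-fold. In WT Hmgcs1 was highest in oligodendrocytes, clear of astrocytes, and in CCI it was highest in astrocytes, clear of oligodendrocytes. In microglia-like nuclei it was 55.1 CPM in CCI and 122 CPM in WT (-1.15, -1.88 to -0.41).

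Idi1, encoding the isomerase of the isoprenoid units, was the gene called lower in all 4 classes. Its levels were 13.4 CPM in oligodendrocytes, 7.77 in precursors, 16.1 in astrocytes and 8.08 in neurons of CCI, against 31.3, 20.9, 26.5 and 13.9 CPM in WT. Its ratio was -1.22 (-1.64 to -0.80) in oligodendrocytes and -0.78 (-1.05 to -0.50) in neurons. In precursors, with 10 UMIs in each library, it was -1.43 (-2.85 to -0.01), and in astrocytes -0.71 with an upper bound just under 0, and these are the calls most easily lost under other settings. Fdps, encoding farnesyl diphosphate synthase, had 18.2 CPM in CCI and 27.3 CPM in WT oligodendrocytes (-0.59, -0.99 to -0.17), just past 1.5-fold. It had 10.1, 16.7 and 13.3 CPM in CCI precursors, astrocytes and neurons, against 4.18, 21.6 and 13.04 CPM in WT.

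The remaining genes of the branch were not called between libraries. Acat2 was at 10.9, 11.6, 12.2 and 15.4 CPM in oligodendrocytes, precursors, astrocytes and neurons of CCI, against 7.001, 8.36, 8.82 and 10.5 CPM in WT, the only sterol enzyme with its highest level in neurons in both libraries, though not clear of astrocytes. Mvk, encoding mevalonate kinase, was at 9.30, 6.21, 10.6 and 4.50 CPM in these classes of CCI, against 8.67, 8.36, 9.80 and 3.76 CPM in WT. It was called higher than in neurons both in oligodendrocytes, 2.07-fold in CCI and 2.30-fold in WT, and in astrocytes, 2.35-fold in CCI and 2.60-fold in WT. Pmvk, encoding the next kinase, had 17.1, 20.2, 18.3 and 21.4 CPM in CCI, against 18, 8.36, 18.6 and 18.2 CPM in WT. Mvd, encoding the decarboxylase that follows, had 3.49, 4.66, 12.97 and 4.78 CPM in CCI, against 5.33, 4.18, 7.84 and 3.58 CPM in WT. Low counts limit these genes, and the WT precursor values of Mvk, Pmvk, Mvd and Fdps rest on 2 to 4 UMIs.

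From squalene to lanosterol, 2 of 3 enzymes were called lower in CCI oligodendrocytes, where 3.9% of all genes were. None of the 3 was called in the other classes. Sqle, encoding squalene epoxidase, had 39.9, 48.9, 50.02 and 38.7 CPM in oligodendrocytes, precursors, astrocytes and neurons of CCI, against 76.0, 43.9, 60.8 and 47.2 CPM in WT. Its oligodendrocyte ratio was -0.93 (-1.18 to -0.68). Lss, encoding lanosterol synthase, had 12.7, 17.1, 19.1 and 16.6 CPM in CCI, against 24, 14.6, 14.7 and 16.4 CPM in WT. In WT it was highest in oligodendrocytes, clear of neurons, and in CCI oligodendrocytes held its lowest level, with a ratio of -0.92 (-1.38 to -0.46). Fdft1, encoding squalene synthase, had 66.0, 31.1, 72.0 and 41.2 CPM in CCI, against 80.3, 41.8, 77.4 and 44.5 CPM in WT, and its oligodendrocyte ratio of -0.28 (-0.51 to -0.06) did not reach 1.5-fold. Exons of Fdft1 overlap those of Ctsb on the other strand, and exons of Hmgcs1, Lss, Cyp51 and Srebf1 likewise overlap Gm48342, 4930483K19Rik, Akap9 and Rai1, while Tm7sf2 overlaps Vps51 on its own strand. Whether strand was used in counting is not given in the sources used here, so reads of these 6 genes and their neighbours cannot be told apart with certainty.

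From lanosterol to cholesterol, all 8 enzymes had negative ratios in oligodendrocytes, where 5882 of 13705 genes did. Of the 8 enzymes, 4 were called lower, where 3.9% of all genes were. Msmo1, encoding methylsterol monooxygenase (ENSMUSG00000031604, chr8:64718139-64733792 on the - strand of mm10), had 89.3 CPM in CCI and 172 CPM in WT oligodendrocytes, a ratio of -0.95 (-1.12 to -0.78). It was highest in astrocytes in both libraries, with 192 CPM in CCI and 261 CPM in WT, where its ratio of -0.44 (-0.64 to -0.23) did not reach 1.5-fold. Precursors had 50.5 CPM in CCI and 71.1 CPM in WT, and neurons 44.3 CPM in CCI and 56.5 CPM in WT. Astrocytes exceeded neurons 4.34-fold in CCI and 4.62-fold in WT, and oligodendrocytes exceeded neurons 2.01-fold in CCI and 3.05-fold in WT.

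Nsdhl, encoding the sterol dehydrogenase that acts after Msmo1 in removing methyl groups, had 24.3, 22.5, 63.8 and 16.7 CPM in oligodendrocytes, precursors, astrocytes and neurons of CCI, against 41.0, 25.1, 70.6 and 19.2 CPM in WT. Hsd17b7, encoding the keto-reductase of the same sequence, had 9.17, 5.44, 23.0 and 7.63 CPM in CCI, against 16.3, 18.8, 18.6 and 9.27 CPM in WT. Both were called higher in astrocytes than in neurons, Nsdhl 3.81-fold in CCI and 3.68-fold in WT, Hsd17b7 3.02-fold in CCI and 2.01-fold in WT. Msmo1 was called in that comparison too, and Cyp51, which also acts in demethylation, was not, at 0.92-fold in CCI and 1.28-fold in WT. In oligodendrocytes the CCI over WT ratio was -0.76 (-1.09 to -0.42) for Nsdhl and -0.83 (-1.38 to -0.28) for Hsd17b7, and in astrocytes neither was called.

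Dhcr7, whose enzyme reduces 7-dehydrocholesterol to cholesterol, had 16.1, 21.7, 33.3 and 19.1 CPM in oligodendrocytes, precursors, astrocytes and neurons of CCI, against 31.3, 25.1, 33.3 and 18.3 CPM in WT. Only the oligodendrocyte ratio was called, at -0.96 (-1.35 to -0.55), and the astrocyte one was 0.00 (-0.56 to 0.59). Cyp51, encoding the lanosterol demethylase, had 64.7, 40.4, 56.4 and 61.0 CPM in CCI, against 94.7, 50.2, 73.5 and 57.3 CPM in WT, with an oligodendrocyte ratio of -0.55 (-0.76 to -0.33) just inside 1.5-fold. Sc5d, encoding a sterol desaturase, had 51.0, 34.9, 46.8 and 45.5 CPM in CCI, against 68.3, 39.7, 42.1 and 52.4 CPM in WT. Oligodendrocytes exceeded neurons 1.06-fold in CCI and 1.65-fold in WT for Cyp51, and 1.12-fold in CCI and 1.30-fold in WT for Sc5d, and neither was called.

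Ebp and Tm7sf2 had low levels in all 4 classes, and their precursor and WT astrocyte values rest on few UMIs. Ebp, encoding a sterol isomerase, had 13.2, 8.54, 5.82 and 5.62 CPM in oligodendrocytes, precursors, astrocytes and neurons of CCI, against 13.3, 4.18, 0.98 and 4.77 CPM in WT. It was called higher in oligodendrocytes than in neurons, 2.34-fold in CCI and 2.79-fold in WT, and its CCI over WT ratio there was not called (-0.02, -0.56 to 0.55). WT astrocytes held 1 UMI of it. Tm7sf2, encoding a sterol reductase, had 5.30, 6.99, 9.26 and 8.42 CPM in CCI, against 7.001, 2.09, 10.8 and 5.69 CPM in WT, and was not called in any class. It was highest in astrocytes in both libraries, though not clear of the next class.

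Among the regulators, Srebf1 (ENSMUSG00000020538, chr11:60199089-60222581 on the - strand of mm10) differed by class. It had 85.5 CPM in CCI and 72.5 CPM in WT astrocytes, 41.6 CPM in CCI and 21.3 CPM in WT oligodendrocytes, 35.7 CPM in CCI and 14.6 CPM in WT precursors, and 7.27 CPM in CCI and 7.90 CPM in WT neurons. Astrocytes exceeded neurons 11.8-fold in CCI and 9.19-fold in WT. The CCI over WT ratio was 0.96 (0.57 to 1.37) in oligodendrocytes and 1.29 (0.13 to 2.68) in precursors, where WT held 7 UMIs, while it was 0.24 (-0.13 to 0.62) in astrocytes and -0.12 (-0.46 to 0.24) in neurons. Srebf2, encoding the factor that acts mainly on sterol enzymes, had 124, 84.7, 120 and 89.4 CPM in oligodendrocytes, precursors, astrocytes and neurons of CCI, against 123, 73.2, 111 and 82.2 CPM in WT. Its oligodendrocyte ratio of 0.02 (-0.16 to 0.20) was not called. In that class 16 of the 18 sterol enzymes had a negative and 2 a positive ratio (Acat2 and Mvk, neither called). Over all genes there, 5882 of 13705 had a negative ratio.

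Insig1, encoding a retention protein and itself a target of SREBPs, had 80.4, 21.7, 86.3 and 29.3 CPM in oligodendrocytes, precursors, astrocytes and neurons of CCI, against 106, 48.1, 106 and 44.4 CPM in WT. It was negative in all 4 classes and called in precursors (-1.14, -1.99 to -0.28) and neurons (-0.60, -0.75 to -0.45), with -0.40 (-0.60 to -0.21) in oligodendrocytes. It was called higher than in neurons in oligodendrocytes, 2.75-fold in CCI and 2.39-fold in WT, and in astrocytes, 2.95-fold in CCI and 2.38-fold in WT. Insig2, encoding the second such protein, had 31.5, 34.9, 31.2 and 35.8 CPM in CCI, against 26.7, 20.9, 25.5 and 38.8 CPM in WT, and was highest in neurons in both libraries. Scap, encoding the escort protein, had 60.9, 42.7, 42.3 and 47.8 CPM in CCI, against 58.7, 35.5, 30.4 and 42.7 CPM in WT, and was called in no class. Stard4, encoding a sterol transfer protein, had 3.88, 4.66, 7.15 and 5.62 CPM in CCI, against 5.001, 2.09, 7.84 and 5.23 CPM in WT, and was likewise not called.

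Of the 5 fatty acid synthesis genes, 4 were called higher in oligodendrocytes than in neurons, where 10.2% of all genes were. None of the 5 was called between libraries in oligodendrocytes, precursors or astrocytes. Scd2 (ENSMUSG00000025203, chr19:44293674-44306864 on the + strand of mm10), encoding a desaturase that makes monounsaturated fatty acids, had 1223 CPM in CCI and 1527 CPM in WT oligodendrocytes, 356 CPM in CCI and 516 CPM in WT precursors, 581 CPM in CCI and 673 CPM in WT astrocytes, and 141 CPM in CCI and 218 CPM in WT neurons. Oligodendrocytes exceeded neurons 8.68-fold in CCI and 6.99-fold in WT, and this order of classes, oligodendrocytes, astrocytes, precursors, neurons, was the same in both libraries. Scd1, encoding a related desaturase, had 36.6, 10.1, 42.6 and 4.29 CPM in oligodendrocytes, precursors, astrocytes and neurons of CCI, against 42.7, 14.6, 35.3 and 6.79 CPM in WT, so that oligodendrocytes exceeded neurons 8.52-fold in CCI and 6.28-fold in WT. In neurons the CCI over WT ratio was -0.63 (-0.70 to -0.56) for Scd2 and -0.66 (-1.05 to -0.26) for Scd1. These 2 calls stood beside the oligodendrocyte marker sums in neurons given above.

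Acaca, encoding acetyl-CoA carboxylase, had 789 CPM in CCI and 551 CPM in WT oligodendrocytes, a ratio of 0.52 (0.44 to 0.60) that did not reach 1.5-fold. It had 258, 423 and 257 CPM in precursors, astrocytes and neurons of CCI, against 249, 391 and 256 CPM in WT. In the other 3 classes the intervals of its ratio included 0. Fasn, encoding fatty acid synthase, had 23.6, 12.4, 33.3 and 10.2 CPM in CCI, against 19.3, 20.9, 21.6 and 8.997 CPM in WT. Acly, encoding the enzyme that supplies cytosolic acetyl-CoA from citrate, had 36.7, 34.9, 50.3 and 23.4 CPM in CCI, against 42.3, 23.0, 42.1 and 21.3 CPM in WT. Over the 5 genes the sum was 2109 CPM in CCI and 2182 CPM in WT oligodendrocytes, a log2 ratio of -0.05 (-0.09 to -0.01), where the sum of the mevalonate branch gave -0.94 (-1.07 to -0.81).

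Oligodendrocytes formed 4 clusters, 2 of them mostly from 1 library, and the difference was followed within each. The sum of the 18 sterol enzymes was 458 CPM in CCI and 831 CPM in WT in cluster 2 (467 CCI and 2451 WT nuclei), 501 CPM in CCI and 763 CPM in WT in cluster 3 (2263 and 135 nuclei), and 589 CPM in CCI and 1044 CPM in WT in cluster 4 (889 and 1036 nuclei). In cluster 15 (79 and 220 nuclei), led by Mobp, Mbp, Mal and Opalin among others, it was 863 CPM in CCI and 957 CPM in WT, a log2 ratio of -0.15 (-0.41 to 0.11). Clusters 2, 3 and 4 gave -0.86 (-1.05 to -0.68), -0.61 (-0.88 to -0.32) and -0.82 (-0.95 to -0.70). Hmgcs1 alone gave -1.39, -1.04 and -1.42 in these 3 clusters and -0.42 (-1.05 to 0.21) in cluster 15. Srebf1 was positive in all 4 clusters, with an interval clear of 0 in cluster 3, where WT held 1 UMI.

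Astrocytes of the 2 libraries lay mostly in different clusters, cluster 5 with 1352 CCI and 116 WT nuclei and cluster 6 with 136 CCI and 1156 WT nuclei. The ratio of the sum was -0.30 (-0.56 to -0.02) in cluster 5 and -0.27 (-0.51 to -0.03) in cluster 6. Neuron clusters differed among themselves. In cluster 0 (306 CCI and 3981 WT nuclei) the sum was 494 CPM in CCI and 449 CPM in WT, and Scd2 had 234 CPM in CCI and 230 CPM in WT, whereas in cluster 9 (538 CCI and 288 WT nuclei) Scd2 had 143 CPM in CCI and 284 CPM in WT. In cluster 1, which held most CCI neurons (3659 CCI and 110 WT nuclei), the sum was 434 CPM in CCI and 606 CPM in WT (-0.48, -0.75 to -0.20), and Scd2 had 145 CPM in CCI and 182 CPM in WT (-0.33, -0.82 to 0.21). Cluster 7, led by the dopaminergic genes Slc18a2 and Slc6a3, had 581 CPM in CCI and 606 CPM in WT for the sum, against 433 CPM in CCI and 470 CPM in WT over all neurons.

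**Figure D3:**
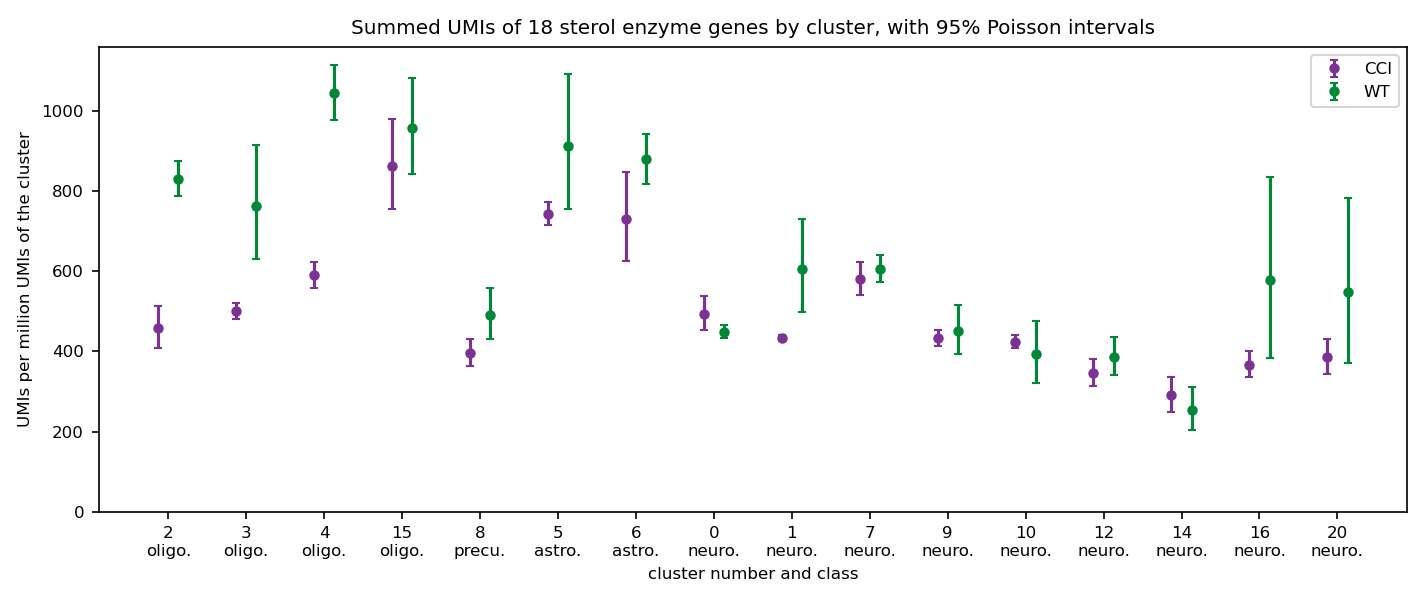
Summed CPM of the 18 sterol enzymes in each cluster of the 4 classes with at least 20 nuclei from each library, CCI left of WT, with 95% Poisson intervals. CCI lies below WT in oligodendrocyte clusters 2, 3 and 4, astrocyte clusters 5 and 6 and neuron cluster 1. The gap is small in oligodendrocyte cluster 15 (863 CPM in CCI and 957 CPM in WT), and CCI lies above WT in neuron cluster 0.

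A further cluster carried the markers of committed precursors, the stage between precursors and oligodendrocytes, with 23 CCI and 212 WT nuclei. In both libraries the sterol sum was highest there, at 396 CPM in precursors, 768 CPM in committed precursors and 535 CPM in oligodendrocytes of CCI, and at 491, 1154 and 900 CPM in the same stages of WT. From precursors to committed precursors the log2 ratio was 0.96 (0.61 to 1.29) in CCI and 1.23 (0.98 to 1.49) in WT, and from there to oligodendrocytes -0.52 (-0.83 to -0.20) in CCI and -0.36 (-0.53 to -0.18) in WT. Of the 18 enzymes, 13 in CCI and 14 in WT were highest at the committed stage, and 3 in CCI and 10 in WT had an interval there clear of precursors. The share of all genes highest at that stage was not computed, so these counts do not show a trait particular to the enzymes. The drop from there to oligodendrocytes had an interval clear of 0 for only 1 enzyme in CCI and 5 in WT. CCI committed precursors held 2 UMIs of Acat2 and 1 of Tm7sf2, both among the 13. Msmo1 had 50.5, 177 and 89.3 CPM along the 3 stages in CCI, and 71.1, 188 and 172 CPM in WT. Scd2 and Acaca instead were highest in oligodendrocytes, Scd2 with 356, 495 and 1223 CPM in CCI and 516, 703 and 1527 CPM in WT. Srebf1 had no UMI in the 23 CCI committed precursors and 2 in WT.

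**Figure D4:**
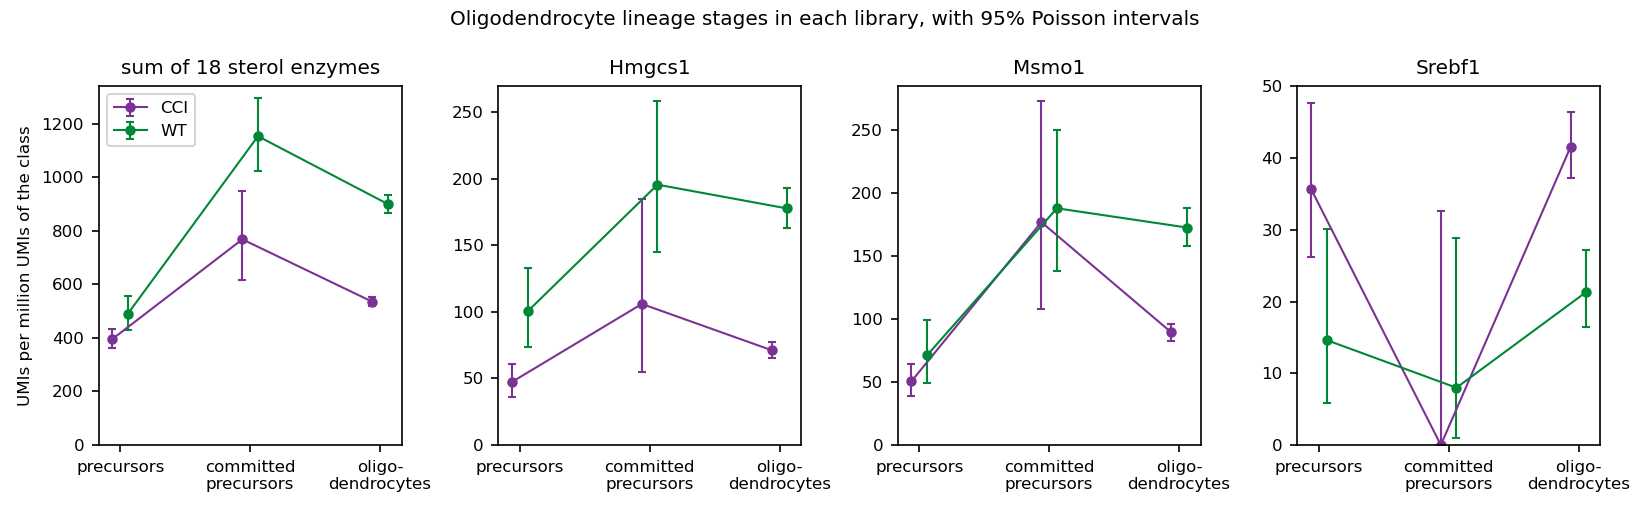
CPM along the oligodendrocyte lineage in CCI and WT, with 95% Poisson intervals, for the sum of 18 sterol enzymes, Hmgcs1, Msmo1 and Srebf1. The sum peaks in committed precursors in both libraries (768 CPM in CCI, 1154 CPM in WT), and the CCI value rests on 23 nuclei.

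Depth differed between libraries, so the share of nuclei with at least 1 UMI was also taken after thinning each nucleus to 1000 UMIs, which kept 3583 of 3698 CCI and 543 of 3842 WT oligodendrocytes. Only nuclei of at least 1000 UMIs were kept, so the WT side is a minority of its nuclei, picked by depth. Its cluster make-up may differ from that of all WT oligodendrocytes, and WT shares before and after thinning are of different sets of nuclei. Hmgcs1 was then seen in 6.45% (5.66 to 7.30) of CCI and 16.4% (13.4 to 19.8) of WT oligodendrocytes, where the unthinned shares were 12.8% in CCI and 12.6% in WT. Srebf1 was seen in 4.33% (3.68 to 5.04) of CCI and 1.29% (0.52 to 2.64) of WT oligodendrocytes, with unthinned shares of 8.22% in CCI and 1.64% in WT. In neurons the thinned share of Srebf1 was 0.812% in CCI and 0.748% in WT (unthinned 5.03% in CCI and 1.39% in WT), and the median depths before thinning were 6259.5 UMIs in CCI and 1616 UMIs in WT neurons, and 1917 UMIs in CCI and 714 UMIs in WT oligodendrocytes. At equal depth 8 of the 27 genes with enough UMIs were called in oligodendrocytes, 7 of them among the 10 above, and Sqle, Hsd17b7 and Dhcr7 were no longer called. Of all genes, 9.66% were called in oligodendrocytes at that depth.

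Related genes of lipid metabolism were counted in the same way in oligodendrocytes. Of 17 measured genes of sterol turnover and traffic, none was called between libraries there, and their median log2 ratio was 0.05. Abca1, encoding a cholesterol exporter, had 141 CPM in CCI and 100 CPM in WT (0.49, 0.31 to 0.68). Of 19 genes of fatty acid activation and elongation, 2 were called lower, Elovl2 and Slc25a1, where 3.9% of all genes were called lower and 9.87% in either direction. Of 8 genes of myelin lipid synthesis none was called there, with Ugt8a, encoding the galactosyltransferase of galactocerebroside synthesis, at 624 CPM in CCI and 759 CPM in WT. In astrocytes 4 of 8 myelin lipid genes (Ugt8a, Fa2h, Gal3st1 and Pllp) were called lower, where 4.34% of all genes were, and of the other lists only Osbp, encoding an oxysterol-binding protein, was called, at 35.7 CPM in CCI and 22.5 CPM in WT. In neurons 3 of 8 (Ugt8a, Fa2h and Pllp) were called lower, where 5.85% of all genes were, and of the other lists only Nr1h3, encoding an oxysterol receptor, at 1.44 CPM in CCI and 2.57 CPM in WT. The summed oligodendrocyte markers were lower in CCI in both classes, and their part in these calls was not tested. In precursors Hacd3, encoding a dehydratase of fatty acid elongation, was the 1 related gene called, at 103 CPM in CCI and 58.5 CPM in WT.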

How the data were processed

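The files hold UMI counts per gene and barcode as deposited by the authors, made with Cell Ranger 7.1.0 per the file headers, on mm10 per the submitters' processing notes. The annotation release and the intron and strand settings are not given in the sources used here. The genes and lists were chosen with earlier results of these data known. So was the rule that names clusters, which earlier work had set after seeing its cluster tables.

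Barcodes below 200 genes or 500 UMIs, or above 20% mitochondrial UMIs, were left out, and doublets were removed with Scrublet in Scanpy 1.11.5 (911 CCI and 1235 WT). Nuclei were clustered with leidenalg 0.10.2 at resolution 1 on 30 principal components of 2000 variable genes, with 20 neighbours, leaving out the 29 genes and the related lists. Clusters were named from fixed markers and kept a name only with at least 3 detected markers. Precision is set by summed UMIs per class, which were 7740132 in CCI and 2999463 in WT oligodendrocytes. Poisson, conditional ratio and Clopper-Pearson intervals, all exact, came from SciPy 1.17.1. They cover counting error only, and nuclei were not treated as replicates. All 29 genes are accounted for, and related genes were named by the interval bound nearest 0 or because they were called. TMM factors came from edgeR 4.0.16. The scripts were tested on simulated data. Positions are from GENCODE vM21, which holds 99.8% of the 32285 gene identifiers, and promoter windows are from RefSeq.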

Additional observations from a re-analysis of the deposited data

How the results depend on the processing

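No gene called between libraries changed the sign of its ratio under any alternative that gave it one, but the direction of calls did change with thinning in astrocytes and neurons. In oligodendrocytes 8 to 12 of the 29 genes were called between libraries in all 12 alternatives, all 10 main calls kept their sign, and Hmgcs1, Idi1, Lss, Msmo1 and Srebf1 were called in every one. The highest count, 12, was by fold alone, where 18.3% of all genes were called. The lowest, 8, came after thinning and with equal cluster weight, where 9.66% and 13.5% of all genes were called. The astrocyte count of 2 was 0 with at least 500 genes and at most 10% mitochondrial UMIs (8.9% of all genes called). It was 0 with TMM scaling (9.69% of all genes) and 1 with classes gated on marker UMIs (7.16%). With nuclei thinned to 1000 UMIs it was 1, a gene called higher (6.51% of all genes). By fold alone it was 5, where 23.9% of all genes were called. Without the barcodes found in both libraries, an alternative chosen after seeing the data, it was 1 (9.63% of all genes). The precursor count of 4 was 1 after thinning and 8 by fold alone, where 6.06% and 23% of all genes were called. The precursor median of -0.18 was 0.03 after thinning and 0.05 with genes of at least 1 UMI. In neurons none of the 4 called genes was called after thinning, which gave 2 higher and 1 lower call of other genes, and with equal weight for each shared cluster Insig1, Scd1 and Scd2 were not.

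Between classes, precursors over neurons gave 2 calls with doublets kept and 2 by fold alone, where 10.4% and 21.4% of all genes were called. Astrocytes over neurons gave 5 with the marker gate and 5 after thinning, oligodendrocytes over neurons 5 after thinning, and astrocytes over oligodendrocytes 1 after thinning. Of all genes, 20.2%, 17.4%, 27.1% and 24.8% were called, in the same order. Thinning kept fewer nuclei and UMIs; for the other settings the cause was not tested. Of ratios for single genes, 69 of 287 moved beyond their interval after thinning, 20 of 108 with equal cluster weight and 15 of 340 with TMM scaling. The summed levels were not computed under these alternatives.

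No paired analysis was possible because each group has 1 library. Library and group cannot be told apart, the WT library was shallower, and genes under 20 UMIs in a class, 8 of the 29 in precursors, were not compared between libraries.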
